A study of Rattus norvegicus with 45 samples.

Results

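The genes described here are 10 rat transporters that carry drugs, bile acids and other organic anions across the hepatocyte membrane. The uptake carriers are Slco1a1, Slco1a4, Slco1b2 and Slco2b1, and the efflux pumps are Abcb1a, Abcb1b, Abcc2, Abcc3, Abcc4 and Abcg2. Members were found by gene symbol in the annotation of the array platform, and 9 of the 10 genes have at least 1 probe set of their own, of 14217 genes represented in all. Together they have 13 probe sets listed with 1 gene each, 7 for uptake carriers and 6 for efflux pumps. Abcb1b is listed only on a probe set that also names Abcb1a, so that signal is given as Abcb1a or Abcb1b and stays outside the counts. Liver RNA of male Sprague-Dawley rats, adults of 10 weeks that were given the compounds by gavage, was hybridised to 1-colour Affymetrix rat genome arrays. The 9 groups of 5 arrays are rats given myclobutanil at 225 mg/kg/day, rats given triadimefon at 175 mg/kg/day, and control rats, each at 6 h, 24 h and 14 days of exposure. Myclobutanil and triadimefon are triazole fungicides, and their doses differ. The series text speaks of 15 livers and the labelling protocol of 3 rats per group, whereas by their titles the 45 arrays fall into 9 groups of 5. Groups here follow the titles, and each array is called a rat. If some of these arrays share an animal, the p-values measure a spread that is partly technical.

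Hepatocytes take up organic anions from portal blood through the SLCO carriers of the sinusoidal membrane. Unchanged drugs and their glutathione, glucuronide or sulfate conjugates leave by ATP-driven pumps, either into bile across the canalicular membrane (ABCB1, ABCC2, ABCG2) or back into blood across the basolateral membrane (ABCC3, ABCC4). Several of these genes are known in rodent liver as targets of the receptors that sense foreign compounds, the constitutive androstane receptor (CAR) and the pregnane X receptor (PXR), and some as targets of NRF2, the regulator of the response to oxidants and electrophiles.

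The authors deposited scores, log-type values with a base not given in the sources used here, so differences are in score units and no fold change is given. The medians of the 45 arrays lay between -0.01 and 0.03 and their 99th percentiles between 2.69 and 3.52, the highest being that of control 24 h rat 2. Levels of different probe sets cannot be set against each other, and in whole liver fewer cells of a type and less RNA per cell cannot be told apart. Hepatocyte markers had array means over 7 genes of 3.88 to 5.08, and 0 of the 7 passed the test in any comparison with control. They still shifted together in most comparisons. Under myclobutanil their differences were -0.22 to -0.13 at 6 h, -0.28 to -0.07 at 24 h and 0.09 to 0.30 at 14 days. Under triadimefon they were -0.13 to -0.03, -0.21 to -0.17 and -0.22 to 0.03. At 6 h the endings of the array file names differed between groups. Endings of 12 were on 3 myclobutanil and 3 triadimefon arrays and on 0 control arrays. Another 2 myclobutanil, 2 triadimefon and 3 control arrays ended in 11. Of the remaining controls 1 array ended in 21 and 1 in 31, endings found on no other array. In a fit with the ending as a term these controls are absorbed by their own endings. Its 6 h control means therefore rest on the 3 control arrays ending in 11. What the ending stands for is not given in the sources used here. A probe set passed at an adjusted p under 0.05 in limma, after Benjamini-Hochberg adjustment over all 31042 probe sets. Both compounds were set against the same controls at each time, so the comparisons with control are not independent of each other. A probe set listed with Cyp2b1 and Cyp2b2, drug-oxidising cytochromes that CAR switches on, was higher in every treated group, by 2.38 to 2.63 score units.

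Most transporters that passed were higher in treated livers, and 3 genes carried most of the calls. Slco1a4 passed in 5 of the 6 comparisons with control on both of its probe sets, Abcb1a passed in 5 on both of its own, and Abcc3 passed in the 4 at 24 h and 14 days. Slco1a1 passed in 1 comparison, higher, and Abcg2 in 1, lower. Abcc2, Abcc4, Slco1b2 and Slco2b1 passed in 0 of the 6. The counts that follow are of probe sets and not of genes. Slco1a4 and Abcb1a have 2 probe sets each, which moved alike over the 9 group means (r = 0.992 and 0.993), so their calls are not separate readings. Under myclobutanil 4 of the 13 probe sets were higher and 0 lower at 6 h, against 0.271% higher, 0.11% lower and 0.38% in either direction among all probe sets. At 24 h 5 were higher and 0 lower, against 3.05% higher, 5.42% lower and 8.47% in either direction. At 14 days 3 were higher and 0 lower, against 0.734% higher, 0.058% lower and 0.792% in either direction. Under triadimefon 2 were higher and 0 lower at 6 h, against 0.738% higher, 0.177% lower and 0.915% in either direction. At 24 h 5 were higher and 1 was lower, against 2.24% higher, 5.75% lower and 7.98% in either direction. At 14 days 6 were higher and 0 lower, against 3.89% higher, 2.8% lower and 6.69% in either direction.
The groups did not overlap on 4, 5 and 4 of the 13 probe sets under myclobutanil at 6 h, 24 h and 14 days, against 1.63%, 6.35% and 2.91% of all probe sets. Under triadimefon they did not overlap on 5, 5 and 7, against 2.54%, 5.61% and 7.92%.

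**Figure D1:**
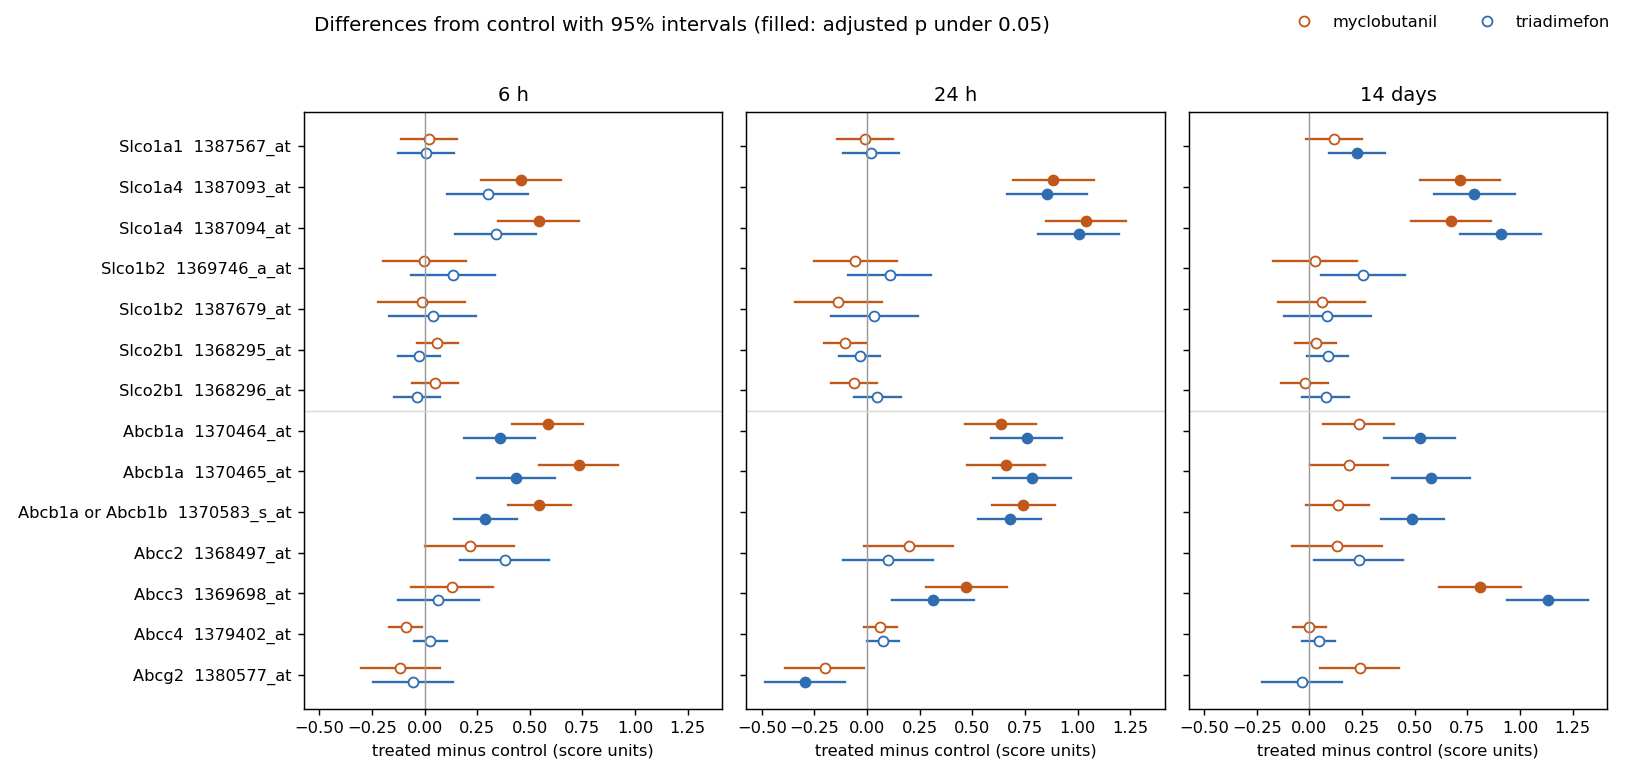
Difference between treated and control group means in score units (horizontal axis) for 14 probe sets (rows; uptake carriers above the grey line, efflux pumps below) at the 3 times (panels), with 95% intervals of the limma fit. Filled points passed at an adjusted p under 0.05. The points of Slco1a4 and Abcb1a lie right of 0 in every panel, Abcc3 moves away from 0 with time to 0.81 under myclobutanil and 1.13 under triadimefon at 14 days, and most other rows lie close to 0.

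Uptake carriers and efflux pumps both held genes that passed and genes that did not. Of the 7 uptake probe sets 2 were higher under myclobutanil at each time, both of Slco1a4, with list medians of 0.05 at 6 h, -0.06 at 24 h and 0.06 at 14 days. Under triadimefon 0, 2 and 3 of the 7 were higher at 6 h, 24 h and 14 days, with medians of 0.04, 0.05 and 0.23. Of the 6 efflux probe sets 2, 3 and 1 were higher under myclobutanil, with medians of 0.17, 0.34 and 0.21. Under triadimefon 2, 3 and 3 were higher and 1 was lower at 24 h, with medians of 0.21, 0.21 and 0.38. The median over all probe sets lay between -0.01 and 0.01 in these comparisons. These are counts over few probe sets, and the difference between uptake and efflux was not tested.

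Slco1a4 encodes a sinusoidal carrier of bile salts, cardiac glycosides and thyroid hormones and is known in the rat as a PXR target. Slco1a1, a carrier of bile salts and steroid conjugates, lies close to it on chromosome 4. Their promoter windows are shown because these related genes gave unlike counts of calls. The windows run from 250 bases before to 50 bases after the annotated start, from RefSeq on GRCr8, and read 5' to 3' along the minus strand. The Slco1a4 window is chr4:176495797-176496096 and the Slco1a1 window is chr4:176681943-176682242. Capitals mark bases that differ from, or have no partner in, the other gene's window in a global alignment, 94 in each.
Slco1a4: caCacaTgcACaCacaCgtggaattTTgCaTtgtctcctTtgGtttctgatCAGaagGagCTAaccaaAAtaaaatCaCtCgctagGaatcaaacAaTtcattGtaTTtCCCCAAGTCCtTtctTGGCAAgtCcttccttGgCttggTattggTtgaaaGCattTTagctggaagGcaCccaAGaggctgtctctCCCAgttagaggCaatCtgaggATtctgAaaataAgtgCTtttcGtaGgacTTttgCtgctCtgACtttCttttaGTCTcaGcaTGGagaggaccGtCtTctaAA
Slco1a1: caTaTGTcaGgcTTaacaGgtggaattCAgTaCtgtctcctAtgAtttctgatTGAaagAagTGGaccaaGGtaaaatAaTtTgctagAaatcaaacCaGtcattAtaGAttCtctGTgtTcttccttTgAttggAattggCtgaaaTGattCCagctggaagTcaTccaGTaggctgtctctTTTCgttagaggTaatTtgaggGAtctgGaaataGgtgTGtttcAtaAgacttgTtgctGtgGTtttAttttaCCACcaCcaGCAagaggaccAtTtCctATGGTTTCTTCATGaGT
In that alignment 206 of 283 paired bases were identical (72.8%), against 48.4% to 63.7% for the other 34 pairs of members' windows, Abcb1a with Abcb1b left aside. Neither window holds any of the motifs searched, which are listed with Abcc2.

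Slco1a4 was higher in treated livers at all 3 times. On its probe set of highest level, 1387093_at, the 24 h scores were 3.58, 3.23, 3.57, 3.45 and 3.29 in myclobutanil rats and 3.26, 3.48, 3.42, 3.30 and 3.50 in triadimefon rats, against 2.58, 2.65, 2.58, 2.54 and 2.34 in control rats. Every treated rat lay above every control rat. The difference was 0.88 ± 0.09 for myclobutanil (SE; adjusted p = 3.57e-08) and 0.86 ± 0.09 for triadimefon (adjusted p = 1.29e-07).
At 14 days the scores were 2.90, 3.34, 2.95, 3.25 and 3.09 in myclobutanil rats and 2.85, 3.26, 3.32, 3.19 and 3.25 in triadimefon rats, against 2.69, 2.41, 2.03, 2.31 and 2.52 in control rats. The groups again did not overlap, and the differences were 0.72 ± 0.09 (adjusted p = 1.33e-05) and 0.78 ± 0.09 (adjusted p = 6.62e-07).
At 6 h the scores were 2.88, 3.23, 2.98, 3.11 and 2.96 in myclobutanil rats and 2.94, 2.87, 2.96, 2.78 and 2.82 in triadimefon rats, against 2.42, 2.51, 2.65, 2.64 and 2.66 in control rats. No treated rat fell into the control range, but only the myclobutanil difference of 0.46 ± 0.09 passed (adjusted p = 0.0107), while the triadimefon difference was 0.30 ± 0.09 (adjusted p = 0.127). The second probe set, 1387094_at, gave 0.54, 1.04 and 0.67 for myclobutanil and 0.34, 1.01 and 0.91 for triadimefon at 6 h, 24 h and 14 days, of which the triadimefon value at 6 h did not pass (adjusted p = 0.0753). Over the 9 group means both probe sets had r = 0.992. Among arrays with the ending 11 the 6 h myclobutanil differences were 0.49 and 0.56, with adjusted p of 0.369 and 0.215. A fit with the ending as a term gave 0.47 (adjusted p = 0.22) and 0.51 (adjusted p = 0.128), and without myclobutanil rat 2 the 1387093_at value at 6 h did not pass (adjusted p = 0.0648). The 6 h triadimefon differences passed with only the compared groups in the fit (adjusted p = 0.0266 and 0.0214).
The highest group mean was that of myclobutanil at 24 h, 3.42 ± 0.16 (SD, n = 5), followed by triadimefon at 24 h with 3.39 ± 0.11. Triadimefon and myclobutanil at 14 days came next with 3.17 ± 0.19 and 3.11 ± 0.19, then myclobutanil at 6 h with 3.03 ± 0.14 and triadimefon at 6 h with 2.88 ± 0.08. The control means were 2.58 ± 0.11, 2.54 ± 0.12 and 2.39 ± 0.24 at 6 h, 24 h and 14 days. Gaps between neighbours in this order exceeded the within-group SD of 0.156 only between 24 h and 14 days of triadimefon, between both compounds at 6 h, and between triadimefon and control at 6 h.

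**Figure D2:**
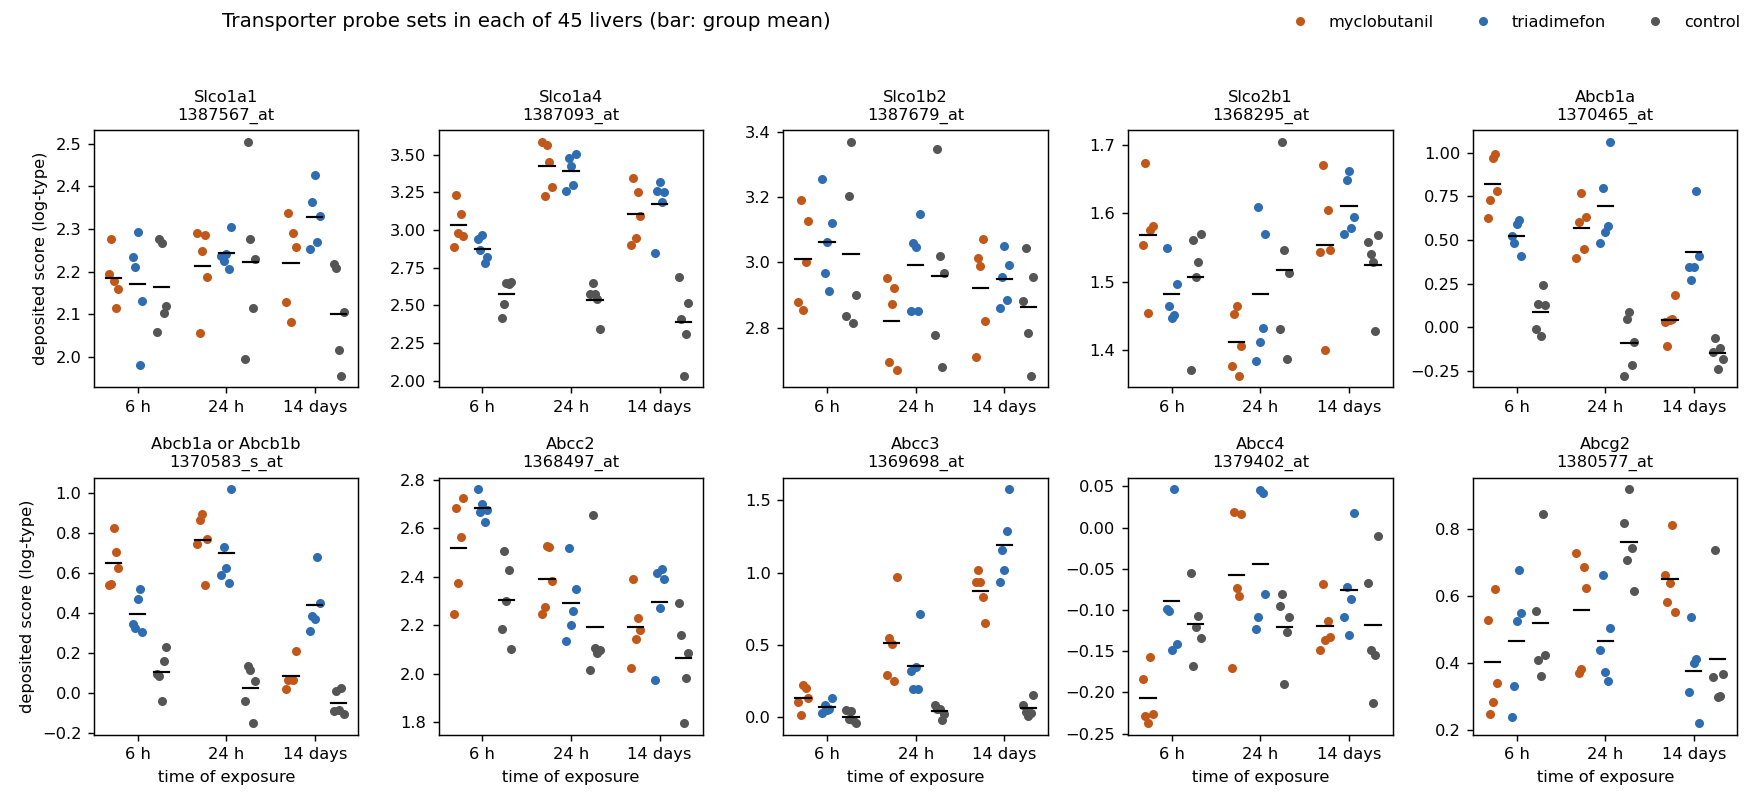
Deposited score of each of the 45 arrays (points) and group mean (bar) for the probe set of highest level of each gene and for the shared Abcb1 probe set, by time of exposure and group. Treated points lie wholly above the control points for Slco1a4 at all times, for Abcc3 at 24 h and 14 days, and for Abcb1a at 6 h and 24 h, while Slco1b2, Slco2b1 and Abcc4 overlap in most panels.

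Slco1a1 was close to control early and higher under triadimefon at 14 days. Its 14-day scores were 2.25, 2.36, 2.43, 2.27 and 2.33 in triadimefon rats, against 2.22, 2.21, 2.02, 1.96 and 2.11 in control rats. The groups did not overlap, and the difference was 0.23 ± 0.07 (adjusted p = 0.0312). The call was lost when control rat 3, 4 or 5 or triadimefon rat 2, 3 or 5 was left out, with adjusted p up to 0.0954. In the myclobutanil rats the 14-day scores were 2.13, 2.34, 2.08, 2.29 and 2.26, a difference of 0.12 with a 95% interval of -0.02 to 0.25 (adjusted p = 0.457). In the other 4 comparisons the differences ran from -0.01 to 0.02, and no interval reached beyond 0.16 in size. After quantile normalization the 24 h triadimefon difference was 0.15 and passed (adjusted p = 0.0245).

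Slco1b2, the liver-specific carrier for bile acids, bilirubin conjugates and statins, and Slco2b1, a carrier of steroid sulfates, gave 0 calls on their 4 probe sets. For Slco1b2 the largest difference was 0.25 ± 0.10 on 1369746_a_at under triadimefon at 14 days (adjusted p = 0.104). There the scores were 2.64, 2.79, 2.82, 2.70 and 2.77 in triadimefon rats, against 2.45, 2.65, 2.51, 2.31 and 2.52 in control rats, with 1 triadimefon rat inside the control range. Its other probe set, 1387679_at, gave 0.09 in that comparison, with a 95% interval of -0.12 to 0.29, and over the 9 group means the pair had r = 0.738. After quantile normalization 1369746_a_at passed at 14 days (0.24, adjusted p = 0.0125) and both probe sets passed under triadimefon at 24 h (0.26, adjusted p = 0.00732, and 0.20, adjusted p = 0.0016). For Slco2b1 the differences on both probe sets lay between -0.10 and 0.09, and their intervals between -0.20 and 0.19. On 1368295_at the triadimefon rats at 14 days ran from 1.57 to 1.66, against 1.43 to 1.57 in control rats, without overlap (0.09, adjusted p = 0.279). The intervals bound these changes and do not show that the carriers were unaffected.

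Abcb1a and Abcb1b encode the 2 rodent forms of P-glycoprotein, which pumps bulky lipophilic drugs into bile, and they too are neighbouring paralogs on chromosome 4. Their windows are shown because the array tells them apart only in part. The Abcb1a window is chr4:26397599-26397898 and lies inside the annotated span of that gene, and the Abcb1b window is chr4:26279980-26280279, both on the minus strand of GRCr8. Capitals again mark bases that differ from or have no partner in the other window, 129 in each.
Abcb1a: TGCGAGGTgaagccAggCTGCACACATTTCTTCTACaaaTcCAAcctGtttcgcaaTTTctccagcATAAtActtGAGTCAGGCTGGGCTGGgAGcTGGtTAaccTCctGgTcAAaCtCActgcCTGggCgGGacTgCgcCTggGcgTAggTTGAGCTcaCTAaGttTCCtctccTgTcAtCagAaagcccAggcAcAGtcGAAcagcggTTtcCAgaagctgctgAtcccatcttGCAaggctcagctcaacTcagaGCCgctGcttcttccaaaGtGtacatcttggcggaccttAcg
Abcb1b: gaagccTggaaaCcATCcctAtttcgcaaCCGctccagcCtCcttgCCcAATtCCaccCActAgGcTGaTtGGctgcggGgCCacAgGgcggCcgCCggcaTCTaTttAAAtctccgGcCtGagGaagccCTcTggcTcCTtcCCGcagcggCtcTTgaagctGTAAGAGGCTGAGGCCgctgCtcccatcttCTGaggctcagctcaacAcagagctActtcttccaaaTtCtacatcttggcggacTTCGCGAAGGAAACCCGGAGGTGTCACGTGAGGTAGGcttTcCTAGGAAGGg
The alignment paired 236 bases, of which 171 were identical (72.5%). Neither window holds a motif that was searched.

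Abcb1a was higher under both compounds at 6 h and 24 h, and at 14 days it passed under triadimefon and not under myclobutanil. At 6 h the scores on 1370465_at were 0.63, 0.73, 0.97, 0.99 and 0.78 in myclobutanil rats and 0.52, 0.49, 0.59, 0.61 and 0.41 in triadimefon rats, against -0.01, 0.13, -0.05, 0.24 and 0.13 in control rats. All 10 treated rats lay above the 5 control rats. The difference was 0.73 ± 0.09 for myclobutanil (adjusted p = 4.39e-06) and 0.44 ± 0.09 for triadimefon (adjusted p = 0.00823).
At 24 h the scores were 0.40, 0.60, 0.77, 0.45 and 0.63 in myclobutanil rats and 0.48, 0.80, 0.54, 0.58 and 1.06 in triadimefon rats, against -0.28, 0.05, 0.09, -0.22 and -0.09 in control rats. The groups did not overlap, and the differences were 0.66 ± 0.09 (adjusted p = 4.74e-06) and 0.78 ± 0.09 (adjusted p = 4.02e-07).
At 14 days the scores were 0.34, 0.27, 0.35, 0.78 and 0.41 in triadimefon rats, against -0.14, -0.06, -0.24, -0.12 and -0.18 in control rats, again without overlap. The triadimefon difference was 0.58 ± 0.09 (adjusted p = 9.46e-05), and triadimefon rat 4 stood apart at the top of its group. In myclobutanil rats the 14-day scores were 0.03, -0.11, 0.04, 0.05 and 0.19, a difference of 0.19 with a 95% interval of 0.002 to 0.37 that did not pass (adjusted p = 0.376), with 1 myclobutanil rat inside the control range. The probe set 1370464_at gave 0.58, 0.64 and 0.23 for myclobutanil and 0.36, 0.76 and 0.52 for triadimefon, passing in the same 5 comparisons and without overlap in the one that did not pass (adjusted p = 0.185), and over the group means the pair had r = 0.993. The probe set of Abcb1a or Abcb1b gave 0.54, 0.74 and 0.13 for myclobutanil and 0.29, 0.68 and 0.49 for triadimefon, and it too did not pass under myclobutanil at 14 days (adjusted p = 0.449).
Among arrays with the ending 11 the 6 h myclobutanil differences of the Abcb1a probe sets were 0.56 (adjusted p = 0.182) and 0.48 (adjusted p = 0.215), and the triadimefon ones 0.39 (adjusted p = 0.744) and 0.33 (adjusted p = 0.764). With the ending as a term in the fit, the myclobutanil values of 0.64 (adjusted p = 0.00773) and 0.52 (adjusted p = 0.0254) passed and the triadimefon values of 0.35 (adjusted p = 0.314) and 0.30 (adjusted p = 0.359) did not. The 6 h triadimefon call on 1370464_at was also lost without control rat 3 or without triadimefon rat 2 or 4 (adjusted p up to 0.0786), and that on the shared probe set without any 1 of 8 of the 10 rats, control rat 5 and triadimefon rat 5 being the exceptions (adjusted p up to 0.155).

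Abcc3, which returns glucuronide conjugates and bile acids from the hepatocyte to blood, had the largest difference of any member and reached it late. At 14 days its scores were 0.93, 1.02, 0.94, 0.83 and 0.65 in myclobutanil rats and 0.93, 1.16, 1.02, 1.29 and 1.58 in triadimefon rats, against 0.08, 0.04, 0.01, 0.03 and 0.15 in control rats. The lowest treated rat lay well above the highest control rat. The differences were 0.81 ± 0.10 for myclobutanil (adjusted p = 1.14e-06) and 1.13 ± 0.10 for triadimefon (adjusted p = 1.05e-10).
At 24 h the scores were 0.29, 0.55, 0.51, 0.25 and 0.97 in myclobutanil rats and 0.32, 0.20, 0.35, 0.20 and 0.71 in triadimefon rats, against 0.09, 0.06, 0.06, -0.02 and 0.02 in control rats. Rat 5 was the highest of each treated group, and no treated rat fell into the control range. The myclobutanil difference was 0.47 ± 0.10 (adjusted p = 0.000978) and the triadimefon difference 0.31 ± 0.10 (adjusted p = 0.0345). The triadimefon call was lost without control rat 2, 3, 4 or 5 or triadimefon rat 1, 3 or 5, with differences of 0.22 to 0.35 over all leave-outs and adjusted p up to 0.135.
At 6 h the scores ran from 0.02 to 0.22 in myclobutanil rats and from 0.03 to 0.13 in triadimefon rats, against -0.04 to 0.05 in control rats, and neither difference passed (0.13, adjusted p = 0.813, and 0.07, adjusted p = 0.876). In the order of group means, triadimefon at 14 days (1.19 ± 0.25, SD, n = 5), myclobutanil at 14 days (0.87 ± 0.14), myclobutanil at 24 h (0.51 ± 0.29) and triadimefon at 24 h (0.36 ± 0.21) were each separated from the next by more than the within-group SD of 0.158, while the 6 h and control means, 0.01 to 0.14, were not separated from each other.

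Abcc2 exports conjugates, bilirubin glucuronides among them, into bile, and mutations in it cause conjugated hyperbilirubinaemia. Its window, chr1:252613625-252613924 on the plus strand of GRCr8, is shown because it held more matches than that of any other member. Both strands of each window were searched for TGACNNNGC (the core of the antioxidant response element that NRF2 binds), GCGTG (the core bound by the aryl hydrocarbon receptor) and the nuclear receptor half-sites AGGTCA and AGTTCA, and capitals mark the matches, in either direction.
Abcc2: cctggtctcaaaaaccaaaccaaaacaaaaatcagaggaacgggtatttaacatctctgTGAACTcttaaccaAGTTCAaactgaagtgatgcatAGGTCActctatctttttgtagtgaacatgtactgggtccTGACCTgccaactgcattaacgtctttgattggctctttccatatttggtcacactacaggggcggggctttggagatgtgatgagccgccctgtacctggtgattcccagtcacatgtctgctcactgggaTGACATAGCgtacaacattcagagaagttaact
TGACNNNGC matched once, starting at base 18 of the transcript, AGGTCA matched from positions -155 and -115, and AGTTCA from -191 and -177, counted from the start. These motifs occur in 12.1%, 16.2% and 14.5% of the 33469 promoter windows of the table, and GCGTG in 29.7%, so single matches are common. A direct repeat of such half-sites spaced by 3 or 4 bases is present in 0.0598% of all windows and in 0 of the 9 members' windows available. Pairs of half-sites in other orientations or spacings were not searched. The AGTTCA matches of Abcc2 form such a pair, from -191 on the minus strand and from -177 on the plus strand, pointing away from each other. How common such pairs are among all windows was not counted. GCGTG matched 2 times in Abcc4 and 1 time each in Abcg2 and Slco1b2, and the Slco1b2 window also held 1 AGGTCA and 1 AGTTCA. Matches are a description of these letters and not of binding.

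The Abcc2 scores at 6 h were 2.76, 2.67, 2.70, 2.62 and 2.67 in triadimefon rats, against 2.18, 2.51, 2.30, 2.43 and 2.10 in control rats. The groups did not overlap, but the difference of 0.38 ± 0.11 did not pass (adjusted p = 0.0668). Myclobutanil rats at 6 h had 2.25, 2.68, 2.37, 2.56 and 2.72, a difference of 0.21 that did not pass (adjusted p = 0.587), and the other 4 differences were between 0.10 and 0.23. The 6 h triadimefon difference lay near the threshold and passed in several other settings: after quantile normalization (0.37, adjusted p = 0.00381), with arrays shifted to the same median (0.39, adjusted p = 0.0458), among probe sets above the median level (adjusted p = 0.042) and with only the compared groups in the fit (adjusted p = 0.0295). With the ending as a term it was 0.42 and among arrays ending in 11 it was 0.41, and neither passed (adjusted p = 0.262 and 0.813). After quantile normalization, at 24 h the myclobutanil difference was 0.31 (adjusted p = 0.00564) and the triadimefon difference 0.24 (adjusted p = 0.0476), both passing. Control 24 h rat 2, the array with the highest 99th percentile, had an Abcc2 score of 2.66, against 2.02 to 2.11 in the other 4 controls. Without that rat the 24 h myclobutanil difference was 0.31 and passed (adjusted p = 0.0479), and without control rat 2 of 6 h the 6 h triadimefon difference was 0.43 and passed (adjusted p = 0.0411).

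Abcg2, which exports sulfate conjugates, porphyrins and urate into bile, was the only member called lower. At 24 h its scores were 0.44, 0.66, 0.37, 0.35 and 0.51 in triadimefon rats, against 0.82, 0.71, 0.92, 0.74 and 0.61 in control rats, so 1 rat of each group overlapped with the other. The difference was -0.29 ± 0.09 (adjusted p = 0.042). Quantile normalization ended the call (-0.26, adjusted p = 0.0821), and so did leaving out control rat 1, 2 or 3 or triadimefon rat 1, 3, 4 or 5 (adjusted p up to 0.124). Myclobutanil rats at 24 h had 0.73, 0.37, 0.38, 0.69 and 0.62, a difference of -0.20 (adjusted p = 0.19), and at 14 days 0.66, 0.58, 0.64, 0.81 and 0.55, against 0.36, 0.74, 0.30, 0.30 and 0.37 in control rats (0.24, adjusted p = 0.244). The control mean was itself highest at 24 h, 0.76 ± 0.11 (SD, n = 5), and 0.41 ± 0.18 at 14 days.

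Abcc4, a basolateral pump for cyclic nucleotides and bile acids, was called in 0 comparisons. Its differences lay between -0.09 and 0.08, and their intervals between -0.17 and 0.15. The myclobutanil rats at 6 h ran from -0.24 to -0.16, against -0.17 to -0.05 in control rats (-0.09, adjusted p = 0.483).

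Some member probe sets were called in the fits that set each compound's effect at one time against its effect at another. The Abcc3 effect of triadimefon was larger at 14 days than at 24 h by 0.82 ± 0.14 (adjusted p = 0.000205). It was the 1 member called there, against 7.91% of all probe sets higher, 4.75% lower and 12.7% in either direction. That count is not read as a result about the members. For myclobutanil the same Abcc3 comparison gave 0.34 ± 0.14 and did not pass (adjusted p = 0.136), except without myclobutanil rat 5 of 24 h (0.45, adjusted p = 0.0271). The Slco1a4 effect of triadimefon was larger at 24 h than at 6 h by 0.56 ± 0.13 (adjusted p = 0.0154) and 0.67 ± 0.13 (adjusted p = 0.00372) on its probe sets. These were 2 of the 3 called there, against 0.551% of all higher, 2.58% lower and 3.13% in either direction, and Abcb1a 1370464_at was the other (0.40 ± 0.12, adjusted p = 0.0497), a call lost in 16 of 20 leave-outs (adjusted p up to 0.0988). Among arrays ending in 11 these values were 0.63 (adjusted p = 0.184), 0.78 (adjusted p = 0.079) and 0.43 (adjusted p = 0.305), and 0 of them passed. For myclobutanil only 1387094_at of Slco1a4 passed between 6 h and 24 h (0.50 ± 0.13, adjusted p = 0.0417), against 0.986% of all higher, 0.76% lower and 1.75% in either direction, and it was lost in 11 of 20 leave-outs (adjusted p up to 0.0892) and among arrays ending in 11 (0.47, adjusted p = 0.185). Between 24 h and 14 days of myclobutanil the Abcb1a effect fell by 0.47 ± 0.13 (adjusted p = 0.0294) and by 0.40 ± 0.12 (adjusted p = 0.0405), and the shared probe set fell by 0.61 ± 0.10 (adjusted p = 0.000735). Abcg2 moved the other way there, by 0.44 ± 0.13 (adjusted p = 0.0454). These 3 calls of 13 stand against 3.46% of all probe sets higher, 1.11% lower and 4.56% in either direction. After quantile normalization the Slco1a4 effect also fell there, by 0.50 (adjusted p = 0.0114) and by 0.61 (adjusted p = 0.00833), and Abcg2 did not pass (adjusted p = 0.105). Both Abcb1a calls and the Abcg2 call were lost in 6, 11 and 14 of 20 leave-outs, with adjusted p up to 0.0575, 0.0815 and 0.106.

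**Figure D3:**
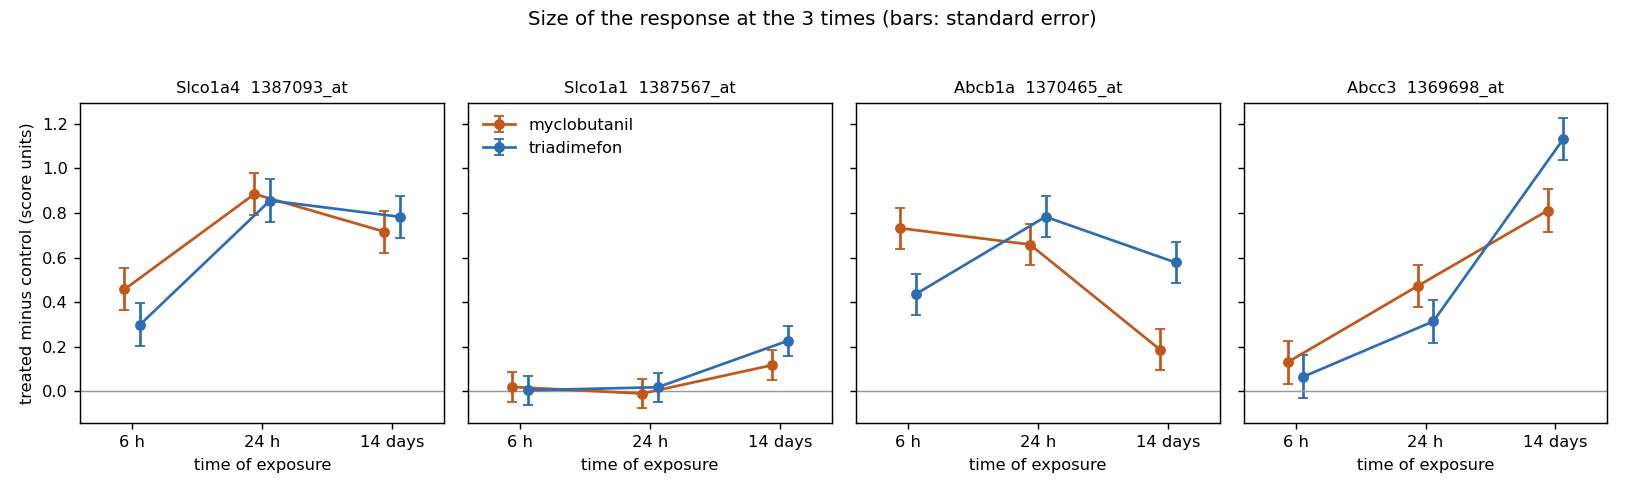
Difference from control in score units with its standard error (vertical axis) at 6 h, 24 h and 14 days of exposure for the probe sets of highest level of Slco1a4, Slco1a1, Abcb1a and Abcc3. Abcc3 climbs to 14 days under both compounds, Slco1a4 is highest at 24 h, and Abcb1a under myclobutanil is 0.73 at 6 h and 0.19 at 14 days.

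Set against each other directly, the 2 treatments differed on few transporters, and since the doses differ this compares the treatments as given. At 14 days Abcb1a 1370465_at was higher under triadimefon, 0.43 ± 0.20 (SD, n = 5), than under myclobutanil, 0.04 ± 0.10, by 0.39 ± 0.09 (SE; adjusted p = 0.0435). It was the 1 member probe set called, against 0.164% of all higher, 0.168% lower and 0.332% in either direction. Every triadimefon rat lay above every myclobutanil rat. The call was lost without myclobutanil rat 1, 2, 3 or 4 or triadimefon rat 1, 4 or 5 (adjusted p up to 0.225). The second Abcb1a probe set gave 0.29 ± 0.08 (adjusted p = 0.129), and the shared probe set gave 0.35 ± 0.07 and passed (adjusted p = 0.0192), though not without myclobutanil rat 1 or 4 or triadimefon rat 4 (adjusted p up to 0.122). In limma 0 of the 13 passed at 6 h, against 0.2% of all higher, 0.0515% lower and 0.251% in either direction, and 0 passed at 24 h, against 0.322%, 0.734% and 1.06%. The groups did not overlap on 2 of the 13 at 6 h, 0 at 24 h and 3 at 14 days, against 1.82%, 2.94% and 2.49% of all. After quantile normalization 1 passed at 6 h and 1 at 24 h. In that setting 234 and 1117 of all probe sets passed, in place of 78 and 328. At an unadjusted p under 0.05, 2307 probe sets differed at 6 h and 3340 at 24 h.
At 6 h Abcb1a ran lower under triadimefon than under myclobutanil, the difference being -0.30 (95% interval -0.48 to -0.11, adjusted p = 0.233), and among the arrays with the ending 12, 3 of each compound, -0.38 (adjusted p = 0.0728), against -0.17 (adjusted p = 0.932) among those ending in 11. For Abcc3 at 14 days the difference was 0.32 with an interval of 0.13 to 0.51 (adjusted p = 0.149), and for Abcg2 it was -0.27 with an interval of -0.46 to -0.09 (adjusted p = 0.213). Slco1a4 1387093_at differed by -0.16, -0.03 and 0.07 at the 3 times, with intervals that reached from -0.35 at 6 h to 0.26 at 14 days. After quantile normalization Slco1a1 (0.20, adjusted p = 0.0178) and Slco1b2 1369746_a_at (0.33, adjusted p = 0.00322) were also higher under triadimefon than under myclobutanil at 14 days.

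In control rats 0 of the 13 probe sets passed in limma at 24 h against 6 h, where 2.04% of all were higher, 0.741% lower and 2.78% either. At 14 days against 6 h 0 passed too, where 1.19% were higher, 2.15% lower and 3.33% either. The groups did not overlap on 0 and 2 of the 13, against 2.5% and 4.32% of all. At an unadjusted p under 0.05, 4316 and 5591 probe sets differed. Abcb1a 1370464_at was the nearest, -0.28 ± 0.06 at 14 days and -0.01 ± 0.08 at 6 h (SD, n = 5), without overlap (adjusted p = 0.0622). It passed without control rat 3 of 6 h (adjusted p = 0.041).

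Other carriers of the same kinds were called in both directions, and the shares of all probe sets given above for each comparison apply to these lists too. Of 21 other uptake carriers measured, 0 passed at 6 h under either compound and 2 were lower under myclobutanil at 24 h, where 5.42% of all probe sets were lower. Under triadimefon 2 were higher and 2 lower at 24 h, and 1 was higher and 2 were lower at 14 days, where 7.98% and 6.69% of all were called in either direction. Slc22a8, an organic anion exchanger, was lower at 24 h by -0.84 ± 0.21 under myclobutanil (adjusted p = 0.00629) and by -0.85 ± 0.21 under triadimefon (adjusted p = 0.00666), and Slc28a2, a nucleoside carrier, was lower under myclobutanil by -0.61 ± 0.12 (adjusted p = 0.000398). Slc22a5, the carnitine carrier, was higher under triadimefon at 24 h (0.40 ± 0.08, adjusted p = 0.000824), and higher there than under myclobutanil (0.38 ± 0.08, adjusted p = 0.00721). Of 15 other efflux carriers 2 were lower under myclobutanil at 24 h, both by less than 0.16. These counts are few and are not read as a property of the lists. Under triadimefon 1 was higher and 2 were lower at 24 h, and 2 were higher at 14 days. The higher one at 24 h was Abcb4, the canalicular phospholipid translocator (0.35 ± 0.09, adjusted p = 0.0136).

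Transcripts of the regulators themselves gave few calls in number. Of 17 regulators of transporter genes 1 was higher under myclobutanil at 6 h, 1 and 2 were lower at 24 h under myclobutanil and triadimefon, and 2 were higher under triadimefon at 14 days, against 0.38%, 8.47%, 7.98% and 6.69% of all called in either direction. Ahr, the aryl hydrocarbon receptor, was the one at 6 h (0.31 ± 0.07, adjusted p = 0.0397) and was higher under triadimefon at 14 days (0.27 ± 0.07, adjusted p = 0.0222). Nr3c1, the glucocorticoid receptor, was lower at 24 h, by -0.26 ± 0.07 under myclobutanil (adjusted p = 0.0136) and -0.33 ± 0.07 under triadimefon (adjusted p = 0.00271).
Of 14 measured target genes of CAR and PXR, 3, 7 and 7 were higher under myclobutanil at 6 h, 24 h and 14 days and 3, 8 and 6 under triadimefon, and 0 were lower. At 14 days Ces2c, a carboxylesterase, was higher by 0.99 ± 0.10 under myclobutanil (adjusted p = 1.12e-08) and 1.5 ± 0.10 under triadimefon (adjusted p = 4.22e-14), and Ugt2b1, a glucuronosyltransferase, by 1.66 ± 0.19 (adjusted p = 3.83e-07) and 1.5 ± 0.19 (adjusted p = 1.02e-06).
Of 14 NRF2 targets 1 was higher and 2 were lower under myclobutanil at 6 h, and 6 and 4 were higher at 24 h and 14 days. Under triadimefon 1 was lower at 6 h, and 3 and 6 were higher at 24 h and 14 days. Gsta3, a glutathione transferase, was higher at 14 days by 1.35 ± 0.16 under myclobutanil (adjusted p = 8.93e-07) and 1.55 ± 0.16 under triadimefon (adjusted p = 1.21e-08). Gclm, a subunit of the enzyme that starts glutathione synthesis, was lower at 6 h, by -0.63 ± 0.07 (adjusted p = 2.13e-07) and -0.48 ± 0.07 (adjusted p = 3.04e-05). Of 6 targets of the aryl hydrocarbon receptor 0 passed in any of the 6 comparisons with control. Cyp1a1, Ahrr and Aldh3a1 had mean scores below 0 over all arrays. The Cyp1a1 differences ran from 0.07 to 0.19 and those of Cyp1a2 from -0.11 to 0.29. This does not show that these targets were unaffected.

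**Figure D4:**
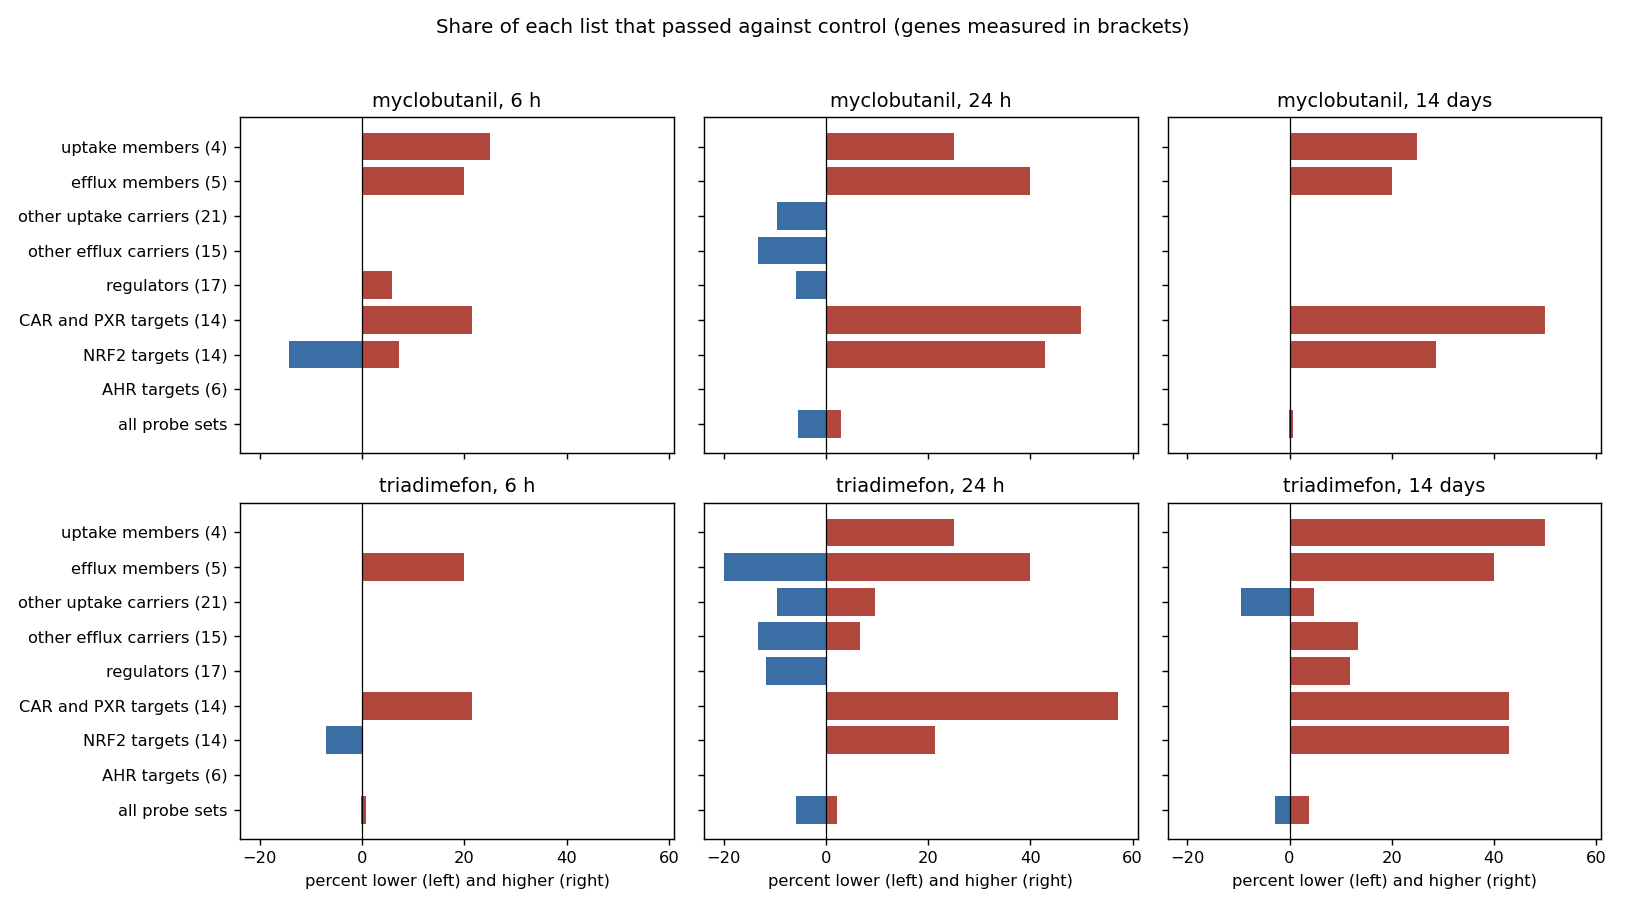
Share of each list in percent (horizontal axis) whose main probe sets passed lower (blue, left of 0) or higher (red, right of 0) against control, by compound (rows of panels) and time (columns), with the number of genes measured in brackets and all probe sets as the last bar. Transporter members and CAR and PXR targets reach mostly to the right, other carriers stay short on both sides, and targets of the aryl hydrocarbon receptor have no bar.

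Some markers of other liver cells and of liver zones passed at 24 h and 14 days. Under myclobutanil at 24 h all 8 Kupffer cell markers measured were lower, with list means per array of 0.95 to 1.25 in myclobutanil rats, against 1.31 to 1.85 in control rats, and the part of this in the transporter differences of that time was not tested. There 3 of 6 endothelial markers (Pecam1, Lyve1 and Emcn), 3 of 6 periportal markers (Hal, Gls2 and Ass1), 1 of 8 stellate markers (Pdgfrb) and 1 of 5 pericentral markers (Glul) were lower too. Among all probe sets 5.42% were lower in that comparison, and the single calls are not read as results about their lists. Under triadimefon at 24 h 0 of 8 Kupffer markers passed, with list means of 1.29 to 1.73. In that comparison 1 of 6 endothelial (Emcn), 1 of 8 stellate (Pdgfrb) and 1 of 5 pericentral markers (Glul) were lower. Among all probe sets 5.75% were lower, so these single calls too are not read as results about their lists. Slco1a4 and Abcb1a were higher at 24 h under both compounds, and no relation of these differences to the markers was tested.
At 14 days the bile duct list, whose cells also carry Abcc3, had means per array of 0.01 to 0.17 in myclobutanil rats and 0.13 to 0.21 in triadimefon rats, against 0.01 to 0.10 in control rats. The median difference of its 5 genes was -0.03 under myclobutanil (range -0.04 to 0.44), so most of them did not rise. Under triadimefon it was 0.02 (range -0.03 to 0.54). Epcam alone was called, higher by 0.44 (adjusted p = 2.03e-05) and by 0.54 (adjusted p = 8.91e-08). Among all probe sets 0.734% and 3.89% were higher in these comparisons. The duct keratins Krt19 and Krt7 and the channel Cftr had mean scores below 0 over all arrays. The part of duct cells in the Abcc3 differences was not tested. Under triadimefon at 14 days 1 of 5 pericentral markers (Slc1a2, adjusted p = 0.0496) and 1 of 6 endothelial markers (Pecam1) were higher, against 3.89% of all probe sets. The pericentral differences ran from -0.10 to 0.13 and the endothelial ones from 0.07 to 0.15. Slc1a2 had a mean score of -0.02 over all arrays. These single calls are not read as results about their lists. Finally, 0 of 4 erythroid and 0 of 5 lymphocyte markers passed in any comparison with control.

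For each member, the genes whose 9 group means ran most like its own were taken from 9491 genes above the median level, by Pearson's r. These are descriptions over 9 points that share the control groups. Abcb1a was followed most closely by Mdm2, the ubiquitin ligase that acts on p53 (r = 0.972), Vav2 (0.961) and Eef1e1 (0.956). Abcc3 was followed by Gstm3, a glutathione transferase (r = 0.986), Ugt2b34l1 (0.973) and Cidea, a lipid droplet protein (0.968). Slco1a4 was followed by Ppcdc, an enzyme of coenzyme A synthesis (r = 0.948), Agpat4 (0.947) and Timm10b (0.935). For Abcc2 these were Prr14l (r = 0.973), Slc20a1 (0.952) and Zranb2 (0.95), and for Abcg2 they were Ywhae (0.971), Cyp2c12 (0.958) and Vps45 (0.95). Slco1a1 had Enc1 (r = 0.926), Smpdl3a (0.911) and Fbxo9 (0.909), and Slco1b2 had Tmf1 (0.95), Erc1 (0.947) and Ddi2 (0.945). Slco2b1 had Nrbp2 (r = 0.948), Wdr59 (0.941) and Sptssa (0.933), and Abcc4 had Acat2 (0.916), Cstf2 (0.900) and Mboat1 (0.895).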

How the data were processed

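Rat liver RNA was measured on 45 Affymetrix arrays, in 9 groups by their titles, and the authors deposited 1 score per probe set and array. How these values were summarised and normalized, and the base of their logarithm, is not given in the sources used here. Of 31099 probe sets 57 Affymetrix controls were left out and 31042 were tested, of which 20826 are listed with 1 gene. Group differences came from limma 3.58.1 (R 4.3.3), with 1 mean per group over all 45 arrays and Benjamini-Hochberg adjustment within each comparison. The test was checked on simulated data. Arrays have no read depth, and their number limits the precision. The design had foreseen values of a known log scale, and the scores were used as deposited. All probe sets of the members were reported, and other lists through the probe set of highest mean per gene, with up to 4 called genes of largest difference available for naming. The members and lists were chosen with earlier results of these data known. Alternatives were another normalization, centring, level filter, fit, threshold, probe set average, file-name ending, replicate block and each array left out. Promoter windows came from RefSeq (GRCr8) and were aligned with Biopython 1.88. The ending 12 alternative was added after seeing the data.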

Additional observations from a re-analysis of the deposited data

Results flagged for a closer look

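Within groups of 5 arrays, a rat stood apart from the other 4 by Dixon's criterion in 11 of 126 combinations of probe set and group, where chance gives about 1 in 20, or 6.3. For Abcb1a 1370465_at this was triadimefon 14-day rat 4 with 0.783, against 0.27 to 0.41 in the other 4. For Abcc2 it was control 24 h rat 2 with 2.66, against 2.02 to 2.11, and for Abcc4 it was triadimefon 6 h rat 4 with 0.0464, against -0.15 to -0.10. For Abcg2 it was control 14-day rat 2 with 0.737, against 0.30 to 0.37. For Slco1a4 triadimefon 14-day rat 1 was low on both probe sets, with 2.85 against 3.19 to 3.32 and with 2.20 against 2.60 to 2.71, and control 24 h rat 5 was low on 1387094_at, with 1.61 against 1.87 to 1.89. For Slco1b2 1369746_a_at myclobutanil 6 h rat 2 had 2.89, against 2.53 to 2.58, and myclobutanil 14-day rat 1 had 2.25, against 2.52 to 2.62. For Slco2b1 1368295_at control 14-day rat 4 had 1.43, against 1.53 to 1.57. For the shared Abcb1 probe set myclobutanil 14-day rat 5 had 0.208, against 0.02 to 0.07.

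A compound's effect differed between times in 10 tests. Between 24 h and 6 h the myclobutanil effect on Slco1a4 1387094_at differed by 0.50, and the triadimefon effects on Slco1a4 by 0.56 and 0.67, on Abcb1a 1370464_at by 0.40 and on the shared Abcb1 probe set by 0.39. Between 14 days and 24 h the myclobutanil effects differed by -0.40 and -0.47 on Abcb1a, -0.61 on the shared probe set and 0.44 on Abcg2, and the triadimefon effect on Abcc3 differed by 0.82.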

How the results depend on the processing

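Of the single differences recomputed under an alternative, 4545 stayed on their side of the threshold, 162 lost it and 37 gained it. Of the 4545, 187 changed sign, and none of these passed in either setting (main values up to 0.19 in size). Counts of the 13 member probe sets called moved by over 1.5 times as follows, and except where a construction shows it (fewer arrays, fewer probe sets, 1 value per gene) the cause was not tested. Calls over all probe sets moved too in many of these settings, so the member counts are not read as results about the transporters. Myclobutanil against control gave 2 at 6 h with the ending as a covariate, 0 among arrays ending in 11 and 2 with 1 value per gene, in place of 4, and 3 at 24 h with 1 value per gene, in place of 5. Over all probe sets the 6 h calls were 40 with the covariate and 20 among arrays ending in 11, in place of 118. Triadimefon against control at 6 h gave 4 after quantile normalization, 4 among probe sets above the median level, 5 with only the compared groups in the fit, 0 with the covariate, 0 among arrays ending in 11, 1 at an adjusted p under 0.01, 1 with 1 value per gene, and 1 to 3 with each array left out, in place of 2. Over all probe sets these calls were 828 after quantile normalization, 386 above the median level and 207 with only the compared groups, in place of 284. With the covariate they were 35, among arrays ending in 11 they were 9, and at an adjusted p under 0.01 they were 113. Triadimefon against myclobutanil gave 1 at 6 h and 1 at 24 h after quantile normalization, in place of 0. Over all probe sets these calls were 234 and 1117, in place of 78 and 328. At 14 days triadimefon against myclobutanil gave 3 after quantile normalization, 0 with a variance trend and robust moderation, among arrays ending in 11, at an adjusted p under 0.01, with only the compared groups and with 1 value per gene, and 0 to 1 with each array left out, in place of 1. Over all probe sets the 14-day calls were 292 after quantile normalization, 104 with the variance trend and 35 among arrays ending in 11, in place of 103. At an adjusted p under 0.01 they were 27, and with only the compared groups 11. The myclobutanil effect of 24 h against 6 h gave 2 after quantile normalization, 0 with the covariate, among arrays ending in 11 and at an adjusted p under 0.01, and 0 to 1 with each array left out, in place of 1. Over all probe sets these calls were 1251 after quantile normalization, 307 with the covariate and 414 among arrays ending in 11, in place of 542. At an adjusted p under 0.01 they were 207. The myclobutanil effect of 14 days against 24 h gave 1 with the variance trend, 0 at an adjusted p under 0.01 and 0 to 3 with each array left out, in place of 3. Over all probe sets these calls were 1337 with the variance trend and 396 at an adjusted p under 0.01, in place of 1417. The triadimefon effect of 24 h against 6 h gave 1 with the covariate, 0 among arrays ending in 11, 1 at an adjusted p under 0.01 and 1 with 1 value per gene, in place of 3, and that of 14 days against 24 h gave 1 to 2 with each array left out. For 24 h against 6 h the calls over all probe sets were 651 with the covariate and 22 among arrays ending in 11, in place of 972. At an adjusted p under 0.01 they were 253. Controls gave 1 after quantile normalization at 24 h against 6 h, with 1395 calls over all probe sets in place of 863. At 14 days against 6 h controls gave 2 after quantile normalization, 1 among probe sets above the median level, 2 with only the compared groups and 0 to 1 with each array left out, in place of 0. Over all probe sets these calls were 1634 after quantile normalization, 1027 above the median level and 596 with only the compared groups, in place of 1035. Quantile normalization also moved the split of all calls, at 6 h to 266 higher and 175 lower under myclobutanil, in place of 84 and 34, and to 530 and 298 under triadimefon, in place of 229 and 55. At 14 days under myclobutanil it was 222 and 124, in place of 228 and 18. At 24 h it was 1878 higher and 1483 lower under myclobutanil, in place of 946 and 1682, and 1381 and 1421 under triadimefon, in place of 694 and 1784. Deviations of same-numbered arrays of different groups from their group means had r of -0.37 to 0.34 over 45 pairs. The median was 0.05, and 16 pairs were above 0.1. Differently numbered arrays were not set beside them, so this cannot exclude a pairing, and the main fit used none. With the replicate number as a block the count for the myclobutanil effect of 24 h against 6 h was 0 in place of 1, Abcc2 under triadimefon at 6 h passed (adjusted p = 0.0251), and no other count moved by over 1.5 times.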
